A study of Rattus norvegicus with 6 samples.

Results

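The genes of antigen presentation described here were the measured genes whose symbol began with RT1-, the prefix of the rat major histocompatibility complex (MHC), together with Cd74, B2m, Ciita, Tap1, Tap2, Tapbp, Psmb8, Psmb9, Cd80, Cd86 and Cd40. Of 30957 genes, 56 carried one of these symbols, and 41 of them had at least 10 fragments summed over all libraries and were kept. They were 20 class I heavy chains, 9 class II chains and 12 other genes, and 35 of the 41 lay on chromosome 20. The remaining 15 were left out, of which 12 had no fragment in any library and 3 had fewer than 10.

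Sciatic nerve RNA came from 6 rats in 3 groups of 2: the control group (control) and the groups 4 days (D4) and 7 days (D7) after crush of the left nerve with forceps. All were 1-month-old Sprague-Dawley rats, an outbred stock. The sample labels call the control rats normal, whereas the methods describe an operation without the clamp. One library was made per rat, labelled a or b within a group, and equal letters mark no shared rat. The p-values therefore measure the spread between these 6 libraries. Fragments counted on mRNAs numbered 18727255 to 25350886 per library. Whole nerve was sequenced, so a change in the number of cells of a type cannot be told apart from a change in RNA per cell.

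MHC class I molecules sit on nearly all nucleated cells and show peptides cut by the proteasome, carried into the endoplasmic reticulum by the Tap1 and Tap2 transporter and loaded with the help of tapasin (Tapbp), on a heavy chain paired with beta-2 microglobulin (B2m). Class II molecules are made mainly by macrophages, dendritic cells and B cells, are guarded by the invariant chain (Cd74) and loaded with peptide by the DM chains, which the DO chains hold back. Ciita is the transactivator on which class II transcription depends. After nerve crush, macrophages enter the nerve and clear myelin.

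All 8 tested class II chains were upregulated on D7 and 6 of them on D4, while most class I heavy chains were not. A gene was called a differentially expressed gene (DEG) at an adjusted p under 0.05 (edgeR quasi-likelihood test, Benjamini-Hochberg adjustment over 15195 genes) with a fold change of at least 2. Of the 41 genes, 40 were tested, and RT1-Ha was too low. In control vs D4, 12 of the 40 were upregulated and 0 were downregulated in edgeR and likewise in DESeq2, where 21.9% of all genes were DEGs, 11.2% upregulated and 10.7% downregulated. At an unadjusted p under 0.05, 24 were higher and 0 lower on D4. In control vs D7, 15 were upregulated and 1 was downregulated, against 18.8% DEGs, 9.83% upregulated and 9.02% downregulated, among all genes. DESeq2 gave 14 and 2, and 18 were higher and 5 lower at an unadjusted p under 0.05. In D4 vs D7, 0 were upregulated and 1 was downregulated in edgeR, against 2.18% DEGs, 1.68% upregulated and 0.494% downregulated among all genes. DESeq2 gave 0 and 3, and 7 were higher and 14 lower at an unadjusted p under 0.05. At that unadjusted level, 8088 of all 15195 genes passed on D4, 7361 on D7 and 3754 in D4 vs D7, in either direction. All 12 genes upregulated on D4 were among the 15 upregulated on D7. Both days were compared with the same control libraries.

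By class, 6 of 8 class II chains, 3 of 20 class I heavy chains and 3 of the 12 other genes were upregulated on D4. On D7 these counts were 8 of 8, 4 of 20 and 3 of 12, and 1 class I heavy chain was downregulated. When the 2-fold change itself was tested (glmTreat), 2 class II chains and 3 class I heavy chains were called on D4, and 2 and 1 on D7. The shares of all genes given above are for the main thresholds and do not apply to the glmTreat counts. The median log2 fold change on D4 was 1.15 in class II and 0.40 in class I, where the median of all genes was -0.04. On D7 it was 1.49 in class II and -0.23 in class I, with a median of 0.01 over all genes. On D7 the medians of the 2 classes lay on either side of that of all genes. Without the scaling by TMM factors the median of all genes moved to 0.25 on D4 and 0.31 on D7, and that of class I on D7 became 0.06, still below it. All 8 class II chains were then upregulated on D4, with 3 class I heavy chains as before. Without the D7 library a, the class I median on D7 was 0.05.

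**Figure D1:**
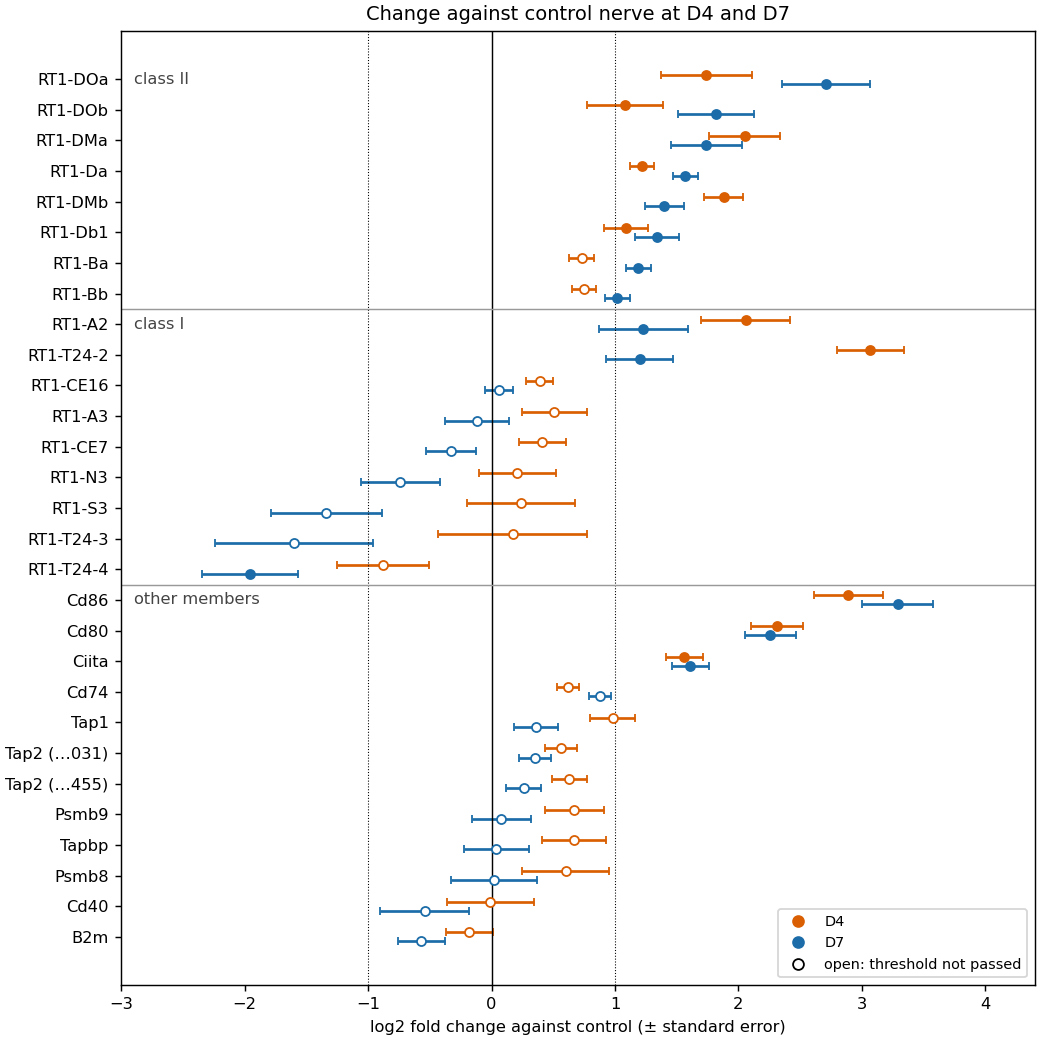
Log2 fold change against control (x axis, ± standard error) for the named genes, with D4 in orange and D7 in blue, filled where the gene was a DEG and open where it was not; dotted lines mark a 2-fold change. All 8 class II chains lie to the right of 0 on both days, whereas class I runs from 3.07 (RT1-T24-2, D4) to -1.96 (RT1-T24-4, D7). RT1-M6-1, RT1-M2 and RT1-Ha had no fragment in the controls and are not drawn.

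RT1-Da, the alpha chain of the rat counterpart of HLA-DR, had the highest level among the class II chains (ENSRNOG00000032844, Rnor_6.0 chr20:4127644-4132616). Its level, in fragments scaled to transcript length and library total (FPKM), with library a first here and throughout, was 15.0 and 13.7 in the control group, 40.3 and 41.3 on D4, then 49.4 and 55.4 on D7. No library of one group overlapped another group. The log2 fold change was 1.22 (SE 0.10, adjusted p = 0.000442) on D4 and 1.57 (SE 0.10, adjusted p = 0.000397) on D7. Its partner RT1-Db1 was lower, at 1.49 and 1.25 FPKM in control, 3.95 and 3.19 on D4, and 3.88 and 4.64 on D7. In control, RT1-Da had 973 and 738 fragments and RT1-Db1 215 and 151, a smaller gap than in FPKM. Levels of different genes in FPKM depend on the length used for each gene, which was not checked. The injured groups of RT1-Db1 lay above control and overlapped each other. RT1-Db1 changed by a log2 fold of 1.09 (SE 0.18, adjusted p = 0.00436) on D4 and 1.34 (SE 0.18, adjusted p = 0.0028) on D7. The D4 call of RT1-Db1 was lost without control b or without D4 a, where the log2 fold change was as low as 0.93.

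RT1-Ba and RT1-Bb, the chains of the counterpart of HLA-DQ, had nearly equal levels in FPKM. In fragments RT1-Bb was higher, at 1135 and 938 in control against 427 and 349 for RT1-Ba. RT1-Ba was at 9.20 and 9.02 FPKM in control, 18.4 and 18.5 on D4, and 24.2 and 26.7 on D7. RT1-Bb was at 8.77 and 8.69 FPKM in control, 19.0 and 16.9 on D4, and 22.0 and 21.4 on D7. For both chains the 3 groups were fully separated in the order control, D4, D7. On D4 their log2 fold changes, 0.73 (SE 0.10) and 0.75 (SE 0.10), were under 2-fold, with adjusted p-values of 0.00204 and 0.00183. Without TMM factors they were 1.02 and 1.04, and both chains were DEGs on D4. On D7 both were DEGs, RT1-Ba at 1.19 (SE 0.10, adjusted p = 0.000639) and RT1-Bb at 1.02 (SE 0.10, adjusted p = 0.000946). The call of RT1-Bb on D7 was lost without control b (log2 fold change 0.99). The step from D4 to D7 did not pass the threshold for either chain (adjusted p = 0.0539 and 0.16).

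The DM chains, which exchange the peptide on class II molecules, were high on D4. RT1-DMa was at 1.32 and 0.768 FPKM in control, 4.80 and 5.88 on D4, and 4.53 and 4.14 on D7. RT1-DMb was at 0.881 and 0.967 FPKM in control, 4.28 and 4.01 on D4, and 2.94 and 3.06 on D7. In both the D4 libraries were above the D7 libraries and these above control. RT1-DMa was upregulated by a log2 fold of 2.05 (SE 0.29, adjusted p = 0.00259) on D4 and 1.74 (SE 0.29, adjusted p = 0.00621) on D7. RT1-DMb was upregulated by 1.88 (SE 0.16, adjusted p = 0.000434) and 1.40 (SE 0.16, adjusted p = 0.00161) on the log2 scale.

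The DO chains, known as inhibitors of DM, were lower in level and stood highest on D7. RT1-DOa was at 0.127 and 0.101 FPKM in control, 0.499 and 0.450 on D4, and 0.855 and 1.02 on D7, from 9 and 6, 36 and 36, and 54 and 60 fragments. RT1-DOb was at 0.252 and 0.303 FPKM in control, 0.712 and 0.717 on D4, and 1.10 and 1.31 on D7. Again no group overlapped another. RT1-DOa was upregulated by a log2 fold of 1.74 (SE 0.37, adjusted p = 0.0112) on D4 and 2.71 (SE 0.36, adjusted p = 0.00281) on D7. RT1-DOb was upregulated by 1.08 (SE 0.31, adjusted p = 0.0345) and 1.82 (SE 0.31, adjusted p = 0.00669) on the log2 scale. The D4 call of RT1-DOa was lost without either D4 library and that of RT1-DOb under 10 of 13 alternatives at the same threshold, among them leaving out any 1 library (log2 fold change 0.96 to 1.36). The summed FPKM of the DM chains was 5.80 and 4.29 times that of the DO chains in control, 7.49 and 8.48 times on D4, and 3.83 and 3.09 times on D7. This ratio was highest on D4 and lowest on D7 in every library, a description without a test.

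RT1-Ha, the counterpart of an HLA-DP alpha chain, had 0 and 0 fragments in control, 6 and 5 on D4, then 5 and 11 on D7. Against a floor of 3 fragments per control library, it was at least 1.28-fold higher on D4 and at least 2.32-fold higher on D7, without a test.

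**Figure D2:**
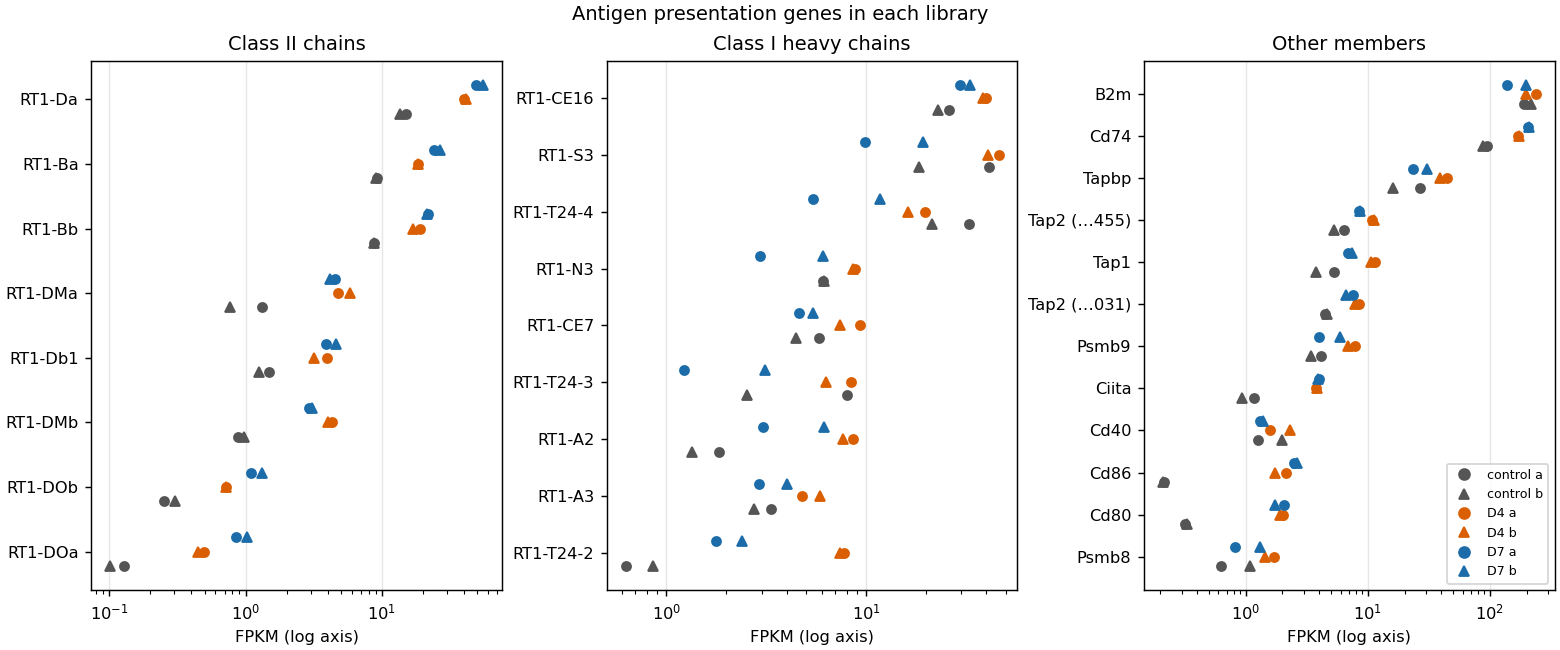
FPKM (log axis) of the named genes in each library, control in grey, D4 in orange and D7 in blue, with a circle for library a and a triangle for library b. Most class II chains form tight pairs, with control below the injured groups, while RT1-S3, RT1-T24-3 and RT1-T24-4 spread widely within the control and D7 groups. RT1-Ha, RT1-M6-1 and RT1-M2, at 0 in the controls, are not drawn.

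The promoters of class II genes are known for an X box followed by a Y box, whose core reads CCAAT or, on the other strand, ATTGG. RefSeq promoter windows (GRCr8, 250 bases before to 50 bases after the annotated start) were matched for 35 of 40 symbols, without RT1-CE7, RT1-M2, RT1-DMb, Ciita and Cd40. The X box was searched on both strands as CC, any base, AG, any 2 bases, AC, any base and GATG, with at most 1 mismatch. Windows of 4 of 8 class II genes held it followed within 30 bases by ATTGG, and these 4 are shown here. Capitals mark the X box and ATTGG.
RT1-Da (GRCr8 chr20:4515323-4515376, plus strand): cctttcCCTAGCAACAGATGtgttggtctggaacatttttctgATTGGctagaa
RT1-Db1 (GRCr8 chr20:4560232-4560284, minus strand): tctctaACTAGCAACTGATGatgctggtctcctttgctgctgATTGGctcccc
RT1-Bb (GRCr8 chr20:4604169-4604221, minus strand): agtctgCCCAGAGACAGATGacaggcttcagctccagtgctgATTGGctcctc
RT1-DOb (GRCr8 chr20:4627596-4627646, minus strand): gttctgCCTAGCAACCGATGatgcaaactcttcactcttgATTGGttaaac
The X box was matched exactly in RT1-Da, RT1-Bb and RT1-DOb and with 1 mismatch in RT1-Db1. The gap between the motifs was 23 bases in RT1-Da, 22 in RT1-Db1 and RT1-Bb, and 20 in RT1-DOb. Of 33469 rat promoter windows, 19 (0.0568%) held this pair, among them also those of the class I genes RT1-CE10, RT1-CE3 and RT1-CE5. The X box alone was in 7 of 18 class I windows, in 4 of 8 class II windows and in 1.71% of all windows. CCAAT on either strand was in all 8 class II windows, in 14 of 18 class I windows and in 37.5% of all windows. RT1-Ba, RT1-DMa, RT1-DOa and RT1-Ha showed no X box match in these windows. Of these, RT1-Ba, RT1-DMa and RT1-DOa were upregulated on D7 too, and RT1-Ha was not tested.

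Ciita (Rnor_6.0 chr10:5213350-5260608) was upregulated about as much on both days. It was at 1.17 and 0.938 FPKM in control, 3.77 and 3.86 on D4, and 3.99 and 3.91 on D7. Both injured groups lay above control, and D7 lay just above D4. The log2 fold change was 1.56 (SE 0.15, adjusted p = 0.000695) on D4 and 1.61 (SE 0.15, adjusted p = 0.000959) on D7. D4 vs D7 differed by 0.05 (SE 0.15, adjusted p = 0.884).

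Cd74, the invariant chain, was among the most abundant genes of the group and increased less in proportion than the chains it accompanies. It was at 95.3 and 87.9 FPKM in control, 171 and 174 on D4, then 205 and 208 on D7. The 3 groups did not overlap. With TMM scaling its log2 fold changes of 0.62 (SE 0.09, adjusted p = 0.00301) and 0.88 (SE 0.09, adjusted p = 0.00124) stayed under 2-fold, so it was not a DEG on either day. Without TMM factors the log2 fold change on D4 was 0.91. Mean FPKM, which carries no TMM scaling, was 91.6 in control and 207 on D7, more than 2-fold apart. The authors list Cd74 among predicted targets taken from their DEGs unique to D7, at the same thresholds. The level of Cd74 relative to the sum of the class II chains was 2.57 and 2.53 in control, 1.86 and 1.91 on D4, and 1.88 and 1.77 on D7. It was thus lower in all 4 injured libraries than in both controls, a description without a test.

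Among the class I heavy chains, RT1-A2, RT1-T24-2 and RT1-M6-1 were DEGs on both days. RT1-A2, a classical class I heavy chain (Rnor_6.0 chr20:5374985-5378539), was at 1.84 and 1.34 FPKM in control, 8.65 and 7.66 on D4, and 3.05 and 6.19 on D7. Control was lowest, D4 highest, and the D7 libraries stood far apart between them. It was upregulated by a log2 fold of 2.06 (SE 0.36, adjusted p = 0.006) on D4 and 1.23 (SE 0.36, adjusted p = 0.0418) on D7. The D7 call was lost under 8 of 13 alternatives at the same threshold, including without control a, control b, D4 a, D4 b or D7 b, with the log2 fold change between 0.65 and 1.67. The span of RT1-A2 lies inside that of RT1-A1, and similar class I genes can share fragments, so the split between them is uncertain. RT1-A1 was at 2.88 and 2.78 FPKM in control, 5.52 and 4.41 on D4, and 3.84 and 3.74 on D7, with a log2 fold change of 0.52 (SE 0.14, adjusted p = 0.0277) on D4, under 2-fold. The promoter windows of RT1-A1 and RT1-A2, shown because these overlapping genes differed in fold change, are closely alike, and capitals mark the kappa B motif (GGG, any 2 bases, TT, any base, CC, on either strand) and the CCAAT nearest to the start.
RT1-A1 (GRCr8 chr20:4907077-4907208, plus strand): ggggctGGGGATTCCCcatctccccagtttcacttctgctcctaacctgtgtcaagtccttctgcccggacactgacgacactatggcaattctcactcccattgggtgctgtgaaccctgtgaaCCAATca
RT1-A2 (GRCr8 chr20:4872691-4872825, plus strand): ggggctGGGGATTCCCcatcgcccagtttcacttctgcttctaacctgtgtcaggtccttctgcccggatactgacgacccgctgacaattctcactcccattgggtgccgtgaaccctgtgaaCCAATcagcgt
The kappa B motif was in 6 of 18 class I windows, in 2 of 8 class II windows and in 5.0% of all windows.

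RT1-T24-2, a nonclassical class I heavy chain (Rnor_6.0 chr20:3242470-3249189), showed the clearest peak on D4. It was at 0.626 and 0.859 FPKM in control, 7.78 and 7.39 on D4, and 1.78 and 2.40 on D7, from 21 and 24, 265 and 279, and 53 and 67 fragments. No group overlapped another. It was upregulated by a log2 fold of 3.07 (SE 0.27, adjusted p = 0.000477) on D4 and 1.20 (SE 0.27, adjusted p = 0.0179) on D7. It was the only one of the 40 genes that was a DEG in D4 vs D7, where it decreased by 1.87 on the log2 scale (SE 0.25, adjusted p = 0.0222). That call was lost without D4 a, D4 b or D7 a, with an adjusted p up to 0.196, and the D7 call was lost without control a, D4 a or D7 b, with a log2 fold change down to 0.98. Its span overlaps that of RT1-T24-1, which had 3 to 12 fragments per library.

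RT1-S3, RT1-T24-3 and RT1-T24-4, also nonclassical class I heavy chains, were at their lowest on D7. RT1-T24-4 was at 32.8 and 21.4 FPKM in control, 19.7 and 16.3 on D4, then 5.43 and 11.7 on D7. The groups stepped down from control to D7 without overlap. It was downregulated on D7 by 1.96 on the log2 scale (SE 0.39, adjusted p = 0.0108), the only downregulated gene among the 40 in edgeR, while DESeq2 called 2. The call held when any 1 library was left out and was lost at an adjusted p under 0.01 and with glmTreat. On D4 its log2 fold change was -0.88 (SE 0.37, adjusted p = 0.1). RT1-S3 was at 41.2 and 18.4 FPKM in control, 46.1 and 40.7 on D4, and 9.91 and 19.3 on D7. Control b fell within the range of D7, so these groups overlapped. Its log2 fold change was 0.24 (SE 0.44, adjusted p = 0.676) on D4 and -1.34 (SE 0.45, adjusted p = 0.0603) on D7. RT1-T24-3 was at 8.03 and 2.53 FPKM in control, 8.39 and 6.32 on D4, and 1.23 and 3.12 on D7. Its control libraries were far apart, and its log2 fold change of -1.60 (SE 0.64, adjusted p = 0.097) on D7 did not pass. Together these 3 genes made up 58.8% and 44.7% of the summed class I FPKM in control, 41.8% and 39.7% on D4, and 20.6% and 30.8% on D7. In all 3 the control library a was above b and the D7 library a was below b. The RT1 genotypes of these outbred rats were not given, and their part in class I differences between libraries was not tested.

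RT1-CE16, the other abundant class I heavy chain, was at 25.9 and 23.0 FPKM in control, 40.0 and 38.4 on D4, and 29.5 and 33.2 on D7. In FPKM, without TMM scaling, it was highest on D4 and lowest in control. With TMM scaling its log2 fold change was 0.39 (SE 0.11, adjusted p = 0.035) on D4 and 0.06 (SE 0.11, adjusted p = 0.708) on D7. The D7 value turned to -0.04 without control b and to -0.02 without D7 b. RT1-CE7 was at 5.83 and 4.47 FPKM in control, 9.32 and 7.42 on D4, and 4.64 and 5.43 on D7. RT1-N3 was at 6.09 and 6.19 FPKM in control, 8.77 and 8.56 on D4, and 2.93 and 6.11 on D7. For both, D4 was the highest group, and no log2 fold change against control passed the threshold (0.41 and -0.33 for RT1-CE7, 0.21 and -0.74 for RT1-N3). RT1-A3 was at 3.36 and 2.76 FPKM in control, 4.77 and 5.87 on D4, and 2.90 and 4.04 on D7. Its D7 libraries lay around the controls, with log2 fold changes of 0.51 (SE 0.26) on D4 and -0.12 (SE 0.26) on D7, the latter turning to 0.18 without TMM scaling. The spans of RT1-A3 and RT1-CE16 overlap, as do those of RT1-CE2, RT1-CE4 and RT1-CE7 with several smaller RT1-CE genes, so 12 of the 20 class I values are uncertain in this way.

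RT1-M6-1 and RT1-M2, class I genes of the M region, had no fragment in either control library. RT1-M6-1 had 43 and 40 fragments on D4 and 26 and 20 on D7. It was a DEG on both days (adjusted p = 0.00183 and 0.00355), and against the floor of 3 fragments per control library it was at least 9.67-fold higher on D4 and at least 6.59-fold higher on D7. RT1-M2 had 2 and 0 fragments on D4 and 18 and 10 on D7, and was at least 4.00-fold higher on D7 (adjusted p = 0.0267). The call of RT1-M2 was lost with DESeq2 and without control a, control b or D7 b (adjusted p up to 0.0759). The other 9 class I heavy chains, RT1-A1 included, had log2 fold changes from -0.43 to 0.62 on D4 and from -0.58 to 0.63 on D7, and none was a DEG.

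**Figure D3:**
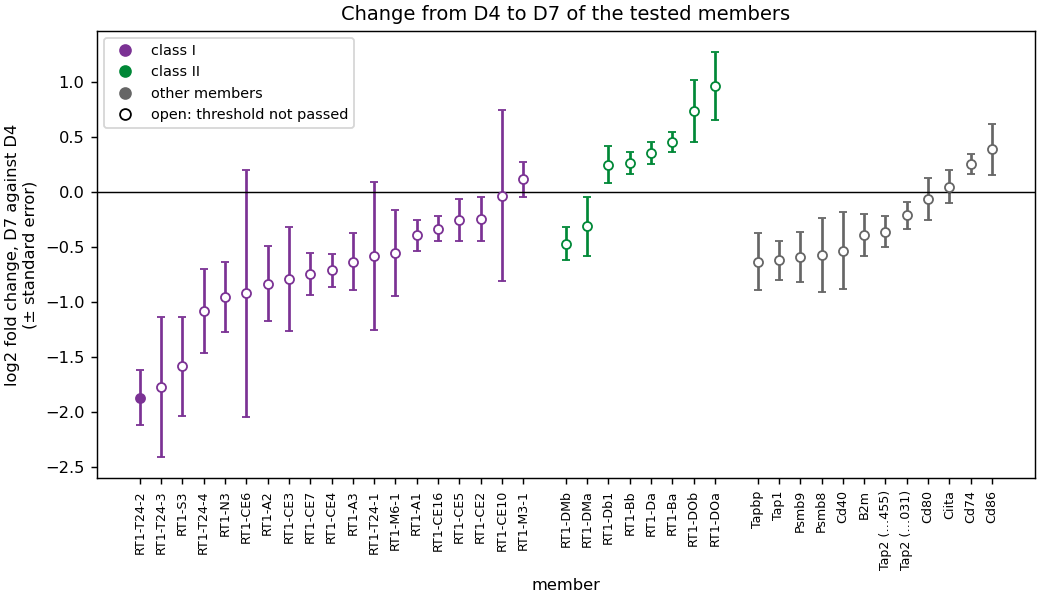
Log2 fold change of D7 against D4 (y axis, ± standard error) for the tested genes, class I in purple, class II in green and the others in grey, filled where the gene was a DEG. Class I lies mostly below 0, with RT1-T24-2 filled at -1.87, and class II mostly above 0 except RT1-DMa and RT1-DMb. RT1-M2, with 2 fragments on D4, is not drawn.

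Between D4 and D7 most class I values went below 0 and most class II values above it. Of 20 class I heavy chains, 18 had a log2 fold change below 0, with a median of -0.67. Of 8 class II chains, 6 had one above 0, with a median of 0.31, while the median of all genes was 0.01. Both D7 libraries were below both D4 libraries for 14 class I heavy chains and 2 class II chains, against 29.1% of all genes, and above for 2 and 5, against 31.5%. For class II, 0 of 8 chains were DEGs in edgeR and 0 in DESeq2, while 5 were higher and 1, RT1-DMb, was lower at an unadjusted p under 0.05. Of all 15195 genes, 3754 passed that unadjusted level in this comparison, in either direction. The 3 genes that DESeq2 called in D4 vs D7 were RT1-T24-2, RT1-T24-3 and RT1-T24-4.

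Summed over each class, class II was higher in each later group and class I was highest on D4. Class I heavy chains summed to 117 ± 31.6 FPKM (SD, n = 2) in control, 168 ± 12.7 on D4 and 95.5 ± 21.6 on D7. The D7 libraries, at 80.3 and 111, overlapped the controls at 140 and 94.8. Class II chains summed to 35.9 ± 1.61 FPKM (SD, n = 2) in control, 91.5 ± 0.708 on D4 and 114 ± 6.32 on D7, with no overlap. The ratio of class II to class I was 0.266 and 0.367 in control, 0.518 and 0.571 on D4, and 1.36 and 1.06 on D7. It was higher in each later group without overlap, and class II exceeded class I in both D7 libraries. The size of this ratio depends on the gene lengths used for FPKM. The deposited FPKM carries no TMM scaling, which cancels in the ratio, and with it the class II sum was 2.09 times control on D4 rather than 2.55 times and 2.57 times control on D7 rather than 3.16 times. With TMM scaling the class I sums were 162 and 107 in control, 167 and 149 on D4, and 75.5 and 103 on D7, so that D4 overlapped control. The class I sum on D4 was then 1.18 times control rather than 1.44 times. Without the most abundant gene of each class the ratio was 0.244, 0.394 and 0.990 in the 3 groups.

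**Figure D4:**
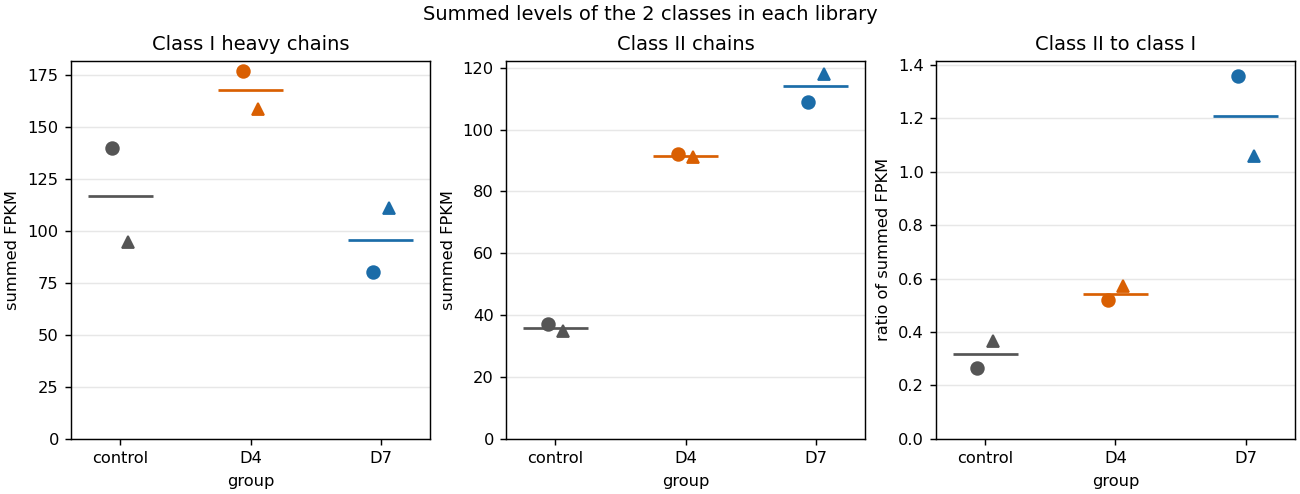
Summed FPKM of class I heavy chains (left), class II chains (middle) and their ratio (right) in each library, with a circle for library a, a triangle for library b and a line at the mean of each group. Class II separates into 3 steps, 35.9, 91.5 and 114 on average, while class I peaks at 168 on D4 and its D7 libraries overlap the controls.

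B2m, the light chain of class I, was abundant and did not pass the threshold on either day. It was at 191 and 215 FPKM in control, 238 and 198 on D4, then 138 and 198 on D7. The groups overlapped, and the log2 fold change was -0.18 (SE 0.19, adjusted p = 0.465) on D4, turning to 0.11 without TMM scaling, and -0.57 (SE 0.19, adjusted p = 0.058) on D7.

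The genes that supply peptides to class I were highest on D4, and 0 of 6 rows were DEGs in edgeR on either day. At an unadjusted p under 0.05, 5 were higher on D4 and 1 on D7, and DESeq2 called Tap1 on D4. Of all 15195 genes, 8088 passed that unadjusted level on D4 and 7361 on D7, in either direction. Tap1, a transporter subunit, was at 5.33 and 3.78 FPKM in control, 11.4 and 10.6 on D4, and 6.89 and 7.49 on D7. It was separated in the order control, D7, D4, with a log2 fold change of 0.98 (SE 0.18, adjusted p = 0.00669) on D4, just under 2-fold, and 0.36 (SE 0.18, adjusted p = 0.163) on D7. Tap2, the other subunit, was listed under 2 gene identifiers at separate places on chromosome 20, whose fragments may be shared. One Tap2 row (ENSRNOG00000000455) was at 6.39 and 5.25 FPKM in control, 10.8 and 11.2 on D4, then 8.46 and 8.72 on D7. The other Tap2 row (ENSRNOG00000046031) was at 4.46 and 4.67, 8.49 and 7.92, and 7.56 and 6.70 FPKM. Both had the same order as Tap1, with log2 fold changes of 0.63 (SE 0.14) and 0.56 (SE 0.13) on D4. Tapbp, or tapasin, was at 26.8 and 16.2 FPKM in control, 44.8 and 39.1 on D4, then 23.5 and 30.8 on D7. The immunoproteasome subunit Psmb9 was at 4.12 and 3.45, 7.81 and 6.95, and 3.96 and 5.88 FPKM in the same order of libraries. Psmb8, another such subunit, was at 0.630 and 1.09, 1.70 and 1.44, and 0.823 and 1.31 FPKM. On D4 these 3 genes were above control in both libraries, and on D7 they overlapped control. Their log2 fold changes were 0.67 (Tapbp, SE 0.26), 0.67 (Psmb9, SE 0.24) and 0.60 (Psmb8, SE 0.35) on D4. On D7 they were 0.04, 0.08 and 0.02, and each turned sign without 1 of the libraries.

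The promoter windows of B2m and Tap1 are shown because genes of this group often carry an interferon response element, whose core was searched on both strands as GAAA, any 2 bases and GAAA. Capitals mark this core and the kappa B motif.
B2m (GRCr8 chr3:129549174-129549208, plus strand): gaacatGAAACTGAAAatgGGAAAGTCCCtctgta
Tap1 (GRCr8 chr20:4668583-4668670, minus strand): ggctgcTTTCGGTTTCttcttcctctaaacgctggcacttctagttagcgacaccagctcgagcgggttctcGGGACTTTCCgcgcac
The interferon core was in 5 of 6 windows of the peptide supply genes and B2m, in 2 of 18 class I windows, in 0 of 8 class II windows and in 3.92% of all windows. No mismatch was allowed, so a window without this exact core, class I windows included, may still hold a variant of the element. Among the co-stimulatory genes with a window it was found in Cd80. In these windows, 0 matches of different motifs overlapped each other.

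**Figure D5:**
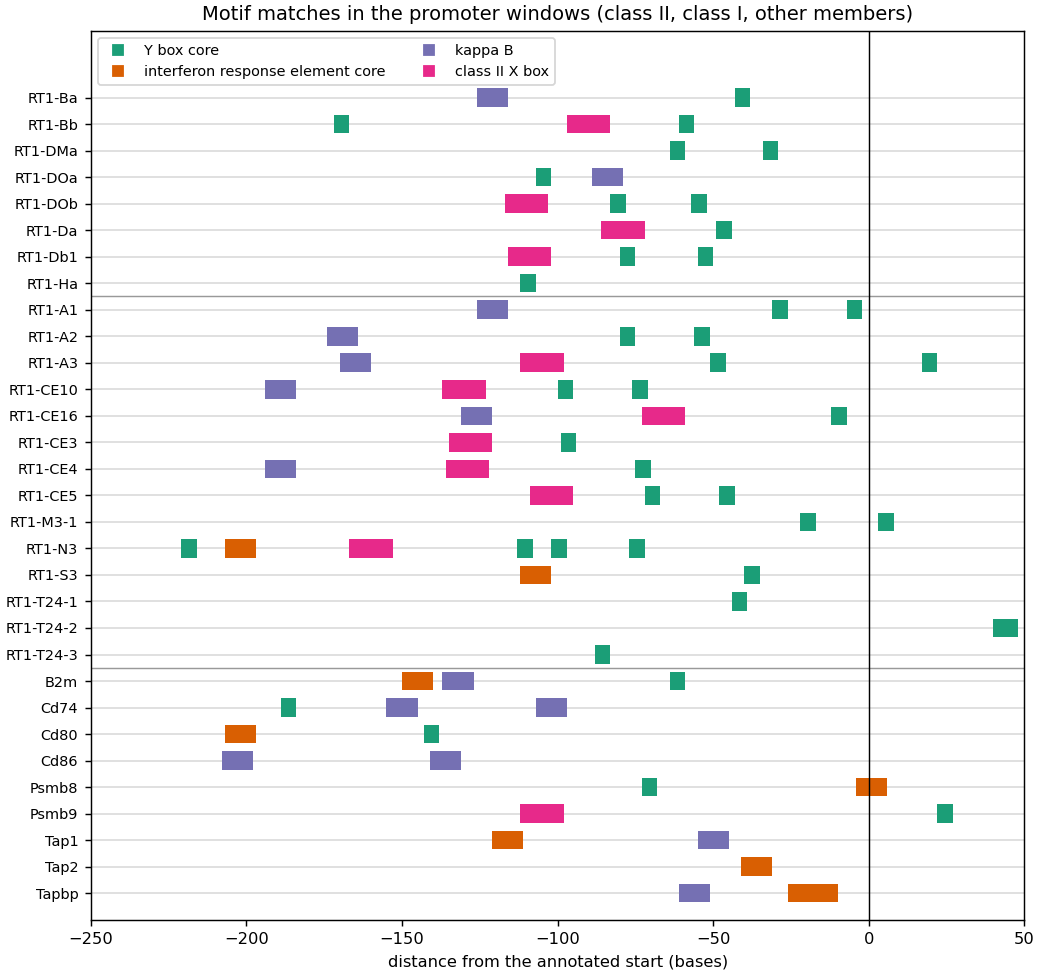
Motif matches in the promoter windows by distance from the annotated start (x axis, bases), with class II genes on top, then class I, then the other genes. Pink X boxes stand before green Y box cores in RT1-Da, RT1-Db1, RT1-Bb and RT1-DOb, and orange interferon cores appear in B2m, Tap1, Tap2, Tapbp and Psmb8. Genes without any match are not drawn.

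The co-stimulatory ligands Cd80 and Cd86, which antigen-presenting cells show to T cells, were upregulated on both days. Cd86 was at 0.214 and 0.210 FPKM in control, 2.16 and 1.73 on D4, and 2.49 and 2.64 on D7. Cd80 was at 0.321 and 0.330 FPKM in control, 2.04 and 1.92 on D4, and 2.08 and 1.74 on D7. Controls were far below all injured libraries for both. Cd86 was upregulated by a log2 fold of 2.89 (SE 0.28, adjusted p = 0.000683) on D4 and 3.29 (SE 0.29, adjusted p = 0.000718) on D7. Cd80 was upregulated by 2.31 (SE 0.21, adjusted p = 0.000507) and 2.26 (SE 0.21, adjusted p = 0.000856) on the log2 scale. Cd40, a receptor through which T cells activate presenting cells, was at 1.26 and 1.97 FPKM in control, 1.59 and 2.29 on D4, and 1.31 and 1.40 on D7. Its groups overlapped, with log2 fold changes of -0.01 (SE 0.35) and -0.54 (SE 0.36), and neither day passed the threshold.

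Among 39 other tested genes of antigen presentation, 10 were upregulated on D4 and 8 on D7, where 11.2% and 9.83% of all genes were, and 0 were downregulated on either day in edgeR or DESeq2, with median log2 fold changes of 0.35 and 0.29. At an unadjusted p under 0.05, 20 were higher and 3 lower on D4, and 18 were higher and 4 lower on D7. Of all 15195 genes, 8088 passed that unadjusted level on D4 and 7361 on D7, in either direction. In the class II processing group, 5 of 6 tested genes were upregulated on D4 and 4 on D7. Ctss, the cathepsin that trims the invariant chain, was at 11.7 and 10.5 FPKM in control, 68.4 and 55.7 on D4, and 52.6 and 66.2 on D7. It was upregulated by a log2 fold of 2.19 (SE 0.17, adjusted p = 0.000327) on D4 and 2.12 (SE 0.17, adjusted p = 0.000609) on D7. Tnfsf9 and Cd276, which act in co-stimulation and its inhibition, had the largest increases among the DEGs of this list on D4 at 2.72 and 2.41 on the log2 scale, and Ctss and Cd83 on D7 at 2.12 and 1.51. Tnfsf9 was not a DEG on D7 (log2 fold change 1.68, adjusted p = 0.0797). Of 6 tested regulators of class II transcription and 4 of class I transcription, 0 were DEGs on either day in edgeR or DESeq2. At an unadjusted p under 0.05, 0 of the class II regulators passed on D4 and 2 on D7, and 2 and 3 of the class I regulators. Rfx5, which binds the X box, had log2 fold changes of -0.06 (SE 0.15) on D4 and 0.56 (SE 0.15, adjusted p = 0.0287) on D7. Nlrc5, the class I transactivator, had 0.09 (SE 0.14) and -0.50 (SE 0.14, adjusted p = 0.0389), and Irf1, an interferon-induced factor, 0.54 (SE 0.13, adjusted p = 0.018) and 0.42 (SE 0.13, adjusted p = 0.0486). Ifng, the main inducer of Ciita, had 0 fragments in every library, which allows up to 3 fragments per library, for counting error only.

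Long noncoding RNAs (lncRNAs) whose span overlaps one of these genes numbered 39, and they overlap 20 of the genes. Of 21 tested, 8 were upregulated on D4 and 0 downregulated, where 10.1% of all 14077 tested lncRNAs were DEGs, 5.19% upregulated and 4.87% downregulated. On D7, 5 were upregulated and 0 downregulated, against 5.79%, 3.0% and 2.79%. DESeq2 gave 7 and 0 on D4 and 5 and 0 on D7, and 0 and 1 were lower at an unadjusted p under 0.05. Without D4 a or D4 b the count on D4 was 2, and without D7 a the count on D7 was 0. ENSRNOT00000087471, within the spans of RT1-CE2, RT1-CE4 and RT1-CE7, had 37 and 24 fragments in control, 256 and 323 on D4, and 197 and 159 on D7. All injured libraries were above control, with log2 fold changes of 3.08 (SE 0.27, adjusted p = 0.00429) and 2.45 (SE 0.26, adjusted p = 0.011). ENSRNOT00000077098 and ENSRNOT00000081704, also upregulated on D4, lie within the span of ENSRNOT00000087471. NONRATT018531.2, within B2m, had 10 and 7 fragments in control, 59 and 59 on D4, and 28 and 27 on D7. Its log2 fold change was 2.62 (SE 0.31, adjusted p = 0.00897) on D4 and 1.59 (SE 0.32, adjusted p = 0.0492) on D7, while B2m itself did not pass. NONRATT017038.2, within RT1-T24-1, had 88 and 102 fragments in control, 309 and 346 on D4, and 145 and 137 on D7, with a log2 fold change of 1.62 (SE 0.20, adjusted p = 0.00989) on D4. NONRATT017037.2 and NONRATT017039.2, also upregulated on D4, lie within RT1-T24-1 too. The lncRNAs upregulated on D4 thus include several from the same place and are not separate observations. Whether counting used the strand was not stated, so fragments of such lncRNAs and of the genes they overlap cannot be told apart. In simulated data no changed lncRNA was recovered, but fewer were changed there than were called here on either day. A lncRNA that was not called is not shown to be without change. In D4 vs D7, 0 of the 21 were DEGs in edgeR, against 0.249% of all tested lncRNAs (0.142% upregulated and 0.107% downregulated). DESeq2 called 2 of the 21, and 6 were lower at an unadjusted p under 0.05.

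Most tested markers of macrophages, dendritic cells and T cells were upregulated on both days. All 10 macrophage markers were upregulated on D4 and 8 on D7, with a summed level of 222 FPKM in both controls, 1190 to 1210 on D4 and 920 to 1010 on D7. Of 7 tested dendritic cell markers, 4 were upregulated on D4 and 5 on D7, with sums of 9.11 to 10.8, 18.7 to 24.3 and 18.1 to 20.8 FPKM and Cd209a at 0 throughout. Zbtb46 went the other way, under 2-fold (log2 fold change -0.80, adjusted p = 0.0071, and -0.78, adjusted p = 0.00967). It was the largest part of the control sum, at 5.66 and 7.27 FPKM, and Itgax that of the D4 sum, at 12.7 and 7.17. Of 8 T cell markers, 5 were upregulated and 1 downregulated on D4 and 6 were upregulated on D7, with sums of 18.0 to 18.2, 57.8 to 65.4 and 73.2 to 74.6 FPKM and Cd3d at 0 in control. Cd4 made up most of the T cell sum, and the other T cell markers summed to 2.55 and 3.68 FPKM in control, 8.30 and 6.69 on D4, and 22.1 and 23.5 on D7. B cell markers summed to at most 0.637 FPKM in any library, with Ms4a1 at 0 on D4 and D7. The 1 tested B cell marker, Cr2, had 0 and 5 fragments in control, 51 and 59 on D4, and 46 and 27 on D7, and was upregulated on both days (log2 fold change 3.86, adjusted p = 0.0148, and 3.58, adjusted p = 0.0241). Adipocyte markers differed between libraries of a group, with Adipoq at 141 and 116 FPKM in control, 42.3 and 20.3 on D4, and 0.728 and 59.2 on D7, and 0 of 4 were DEGs in edgeR. Lyz2 made up most of the macrophage sum, at 870 and 871 FPKM on D4 and 697 and 737 on D7. The macrophage sum was lower on D7 than on D4, and the class II sum was higher. In D4 vs D7 the macrophage markers had log2 fold changes from -0.99 (Cd14) to 0.08 (Adgre1), with a median of -0.55. In that comparison 0 of 10 macrophage markers and 0 of 8 class II chains were DEGs, against 2.18% of all genes. The part of these cell types in the results, and of the difference between the D7 libraries, was not tested.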

How the data were processed

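The sciatic nerve libraries of 2 rats per group were used. Ribosomal reads were removed by the authors, who aligned the others to Rnor_6.0 with HISAT2 2.0.4 and counted fragments with StringTie 1.3.0, per the submitters' processing notes and methods. The deposited counts per gene and per lncRNA transcript are whole numbers without normalization. The deposited FPKM values for mRNAs follow each library's mRNA total. Counts were used for tests and FPKM for levels.

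edgeR 4.0.16 (filterByExpr, TMM, quasi-likelihood test, 1 fit of all 6 libraries, mRNAs and lncRNAs separately) was run in R 4.3.3, with Benjamini-Hochberg adjustment and thresholds of 0.05 and 2-fold. TMM factors for mRNAs were 0.863 to 1.08. Standard errors are the size of the log2 fold change over the root of the F statistic. Genes without fragments in a group were compared with a floor of 3 fragments per library, which gives lower bounds. The procedure was tested on simulated data, where it recovered most of the changed mRNAs with few false calls but none of the changed lncRNAs, although their fitted fold changes were close to those simulated. Fewer lncRNAs were changed there than were called on either day in the real data, so that recovery does not give the power here. DESeq2 1.42.0 was an alternative.

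The genes and lists were chosen with earlier results of these data known. All class II chains, class I heavy chains with a mean of at least 5 FPKM in any group, every other gene of the rule and every DEG between D4 and D7 were given with values in each library. RT1-A1, RT1-M6-1, RT1-M2 and the lncRNAs were named after their values were seen. Of the list of other antigen presentation genes, the 2 largest increases on each day, Rfx5, Nlrc5, Ifng, Ctss and Irf1 were named. Of its 47 genes, 42 were matched by symbol. Endothelial (0 of 4 upregulated and 2 downregulated on D4, 0 and 4 on D7), fibroblast (0 and 0, 0 and 1), skeletal muscle (0 and 1 of 3, 0 and 1) and adipocyte markers (0 of 4 on both days, median log2 fold changes -2.43 and -2.52), and Ptprc (log2 fold change 1.56 and 1.28), were also tested. Schwann cell markers are not reported here.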

Additional observations from a re-analysis of the deposited data

Results flagged for a closer look

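Differences between the 2 days that passed the test of D7 against D4 are listed here (edgeR quasi-likelihood test, 2 rats per group). RT1-T24-2 had a log2 fold change of -1.87 (SE 0.25, adjusted p = 0.0222), with both D7 libraries below both D4 libraries. Cd276, an inhibitory ligand of the B7 family, had -1.04 (SE 0.12, adjusted p = 0.0149), at 82.8 and 89.5 FPKM on D4 and 39.1 and 45.0 on D7, and its call was lost without D4 a, D4 b or D7 a (adjusted p up to 0.16). Cd3g, a chain of the T cell receptor complex, had 2.81 (SE 0.42, adjusted p = 0.0295), from 21 and 22 fragments in control, 5 and 5 on D4 and 29 and 29 on D7, with log2 fold changes against control of -2.59 (adjusted p = 0.00468) on D4 and 0.22 (adjusted p = 0.662) on D7. Lck, a T cell kinase, had 1.32 (SE 0.25, adjusted p = 0.0451), at 1.18 and 1.48 FPKM on D4 and 3.61 and 3.09 on D7. The calls of Cd3g and Lck were lost without any 1 of the D4 or D7 libraries (adjusted p up to 0.221 and 0.28).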

How the results depend on the processing

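The calls on both days were kept in every alternative that gave a value for RT1-M6-1, Ciita, Cd80 and Cd86. Those of RT1-Da, RT1-DMa and RT1-DMb were kept except with glmTreat, which ended the call of RT1-Da on D4 and of RT1-DMa and RT1-DMb on D7. Requiring at least 10 fragments in every library gave no value for genes at 0 in control. The number of DEGs among the genes was 12 on D4, 16 on D7 and 1 in D7 against D4. It was 22 on D4 with no fold threshold, and 6 on D7 when the 2-fold change itself was tested with glmTreat. Without TMM factors it was 15 on D4 and 17 on D7, where 3507 and 3145 of all genes were DEGs. In D7 against D4 it was 2 with only the 2 groups fitted, 3 with DESeq2, and 0 with glmTreat or at an adjusted p under 0.01. Leaving out 1 library gave 9 to 13, 13 to 17 and 0 to 2. For the other antigen presentation genes it gave 6 (without D4 a) to 12 on D4 and 0 to 1 in D7 against D4. For overlapping lncRNAs it gave 2 to 5 on D4 and 0 to 2 on D7. DESeq2 called 2 of these lncRNAs in D7 against D4, and no low-count filter left 5 on D4 and 2 on D7. The cause of these changes was not tested. The shares of all genes given with the main counts do not apply to these alternatives.

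The library letters did not pair the rats, since same-letter deviations correlated at 0.0103 between control and D4, 0.195 between control and D7 and -0.134 between D4 and D7. With the letter as a replicate block, 11, 15 and 1 genes were DEGs on D4, on D7 and in D7 against D4, and 5 and 2 overlapping lncRNAs on D4 and D7. With the D4 letters exchanged, an alternative chosen after seeing the data, the counts were 11, 15 and 1.

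Log2 fold changes that did not pass the threshold turned sign as follows. Leaving out 1 library gave, on D4, 0.00 to 3.85 for RT1-M2, -0.23 to 0.96 for RT1-S3, -0.44 to 1.27 for RT1-T24-3 (-0.04 without D4 a) and -0.30 to 0.32 for Cd40 (0.22 without D4 a, 0.02 without D7 a). On D7 it gave -0.36 to 0.12 for RT1-A3 (0.05 without control a), -0.04 to 0.17 for RT1-CE16 (-0.02 without D7 b), -0.33 to 0.44 for Psmb8 (-0.31 without control a), -0.22 to 0.36 for Psmb9 (-0.06 without control b) and -0.30 to 0.46 for Tapbp (-0.16 without D7 b). For Cd80 in D7 against D4 it gave -0.21 to 0.07. Without TMM factors, B2m was 0.11 and Cd40 0.27 on D4, and RT1-A3 was 0.18 on D7. Cd40 on D4 was 0.04 with only the 2 groups, 0.01 with DESeq2 and 0.02 with at least 10 fragments in every library.

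Without the most abundant gene of each class, the ratio of class II to class I was 0.244 in control, 0.394 on D4 and 0.990 on D7, and the class II sum relative to control was 2.35 on D4 and 2.83 on D7. With TMM-scaled FPKM the class II sum was 2.09 and 2.57 times control.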
